A study of Mus musculus with 24 samples.

Results

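The genes described here encode the machinery of oxidative phosphorylation in mouse CD8+ T cells, followed through the first day of stimulation in culture. Members were chosen by symbol: every gene whose name starts with Nduf, Uqcr or Atp5, the 4 Sdh genes, Cycs, and the Cox4 to Cox8 genes. This gave 93 of the 23420 genes in the files: 45 of complex I, 4 of complex II, 8 of complex III, 18 of complex IV, 17 of complex V and Cycs. The rule also takes in 7 assembly factors of complex I, named Ndufaf, which are not part of the finished complex. Atp5s and Atp5sl, which RefSeq names Dmac2l and Dmac2, are counted with complex V by symbol alone. The rule leaves out some nuclear subunits, among them Cyc1 of complex III. It also leaves out the subunits encoded by mitochondrial DNA, of which the tables analysed hold 0 rows. All 93 members are therefore nuclear genes.

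Oxidative phosphorylation couples the oxidation of fuel to the making of ATP at the inner mitochondrial membrane. Complex I takes electrons from NADH and complex II takes them from succinate, and both hand them to ubiquinone. Complex III passes them on to cytochrome c, complex IV gives them to oxygen, and the protons pumped on the way drive the ATP synthase, complex V. Naive T cells rest on low fuel use, and after stimulation they are known to raise glycolysis and to build up mitochondria.

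The libraries came from 3 mice labelled cKO (E8i-cre+, Tcf7 FL/FL, mice 1 to 3) and 3 mice labelled WT (E8i-cre-, Tcf7 FL/FL, mice 4 to 6), each sampled at 0, 4, 8 and 24 h, so that each of the 8 groups held 3 libraries. All mice carried the floxed Tcf7 alleles and the transgenic OT-I receptor, and the Cre that is driven in CD8 T cells by the E8i enhancer came with the cKO label alone, so Cre and loss of Tcf7 cannot be told apart. CD8 microbeads were used to isolate the cells from lymph nodes and spleen. They were sampled before plating (0 h) and then held on plates coated with antibodies to CD3 and CD28 (1 ug/mL), with murine IL2 (6 ng/mL). Each library was made from 1000 sorted cells, so the values give the share of a gene in the RNA of those cells and not its amount per cell.

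Libraries held 5846265 to 9700397 expected counts. Tcf7, which encodes the transcription factor TCF1, went against the cKO label at 0 h, where it had 681 to 719 TPM in the libraries labelled cKO, against 499 to 567 TPM in those labelled WT. At 4 h it had 251 to 271 TPM in cKO libraries, against 180 to 205 TPM in WT libraries. At 8 h the labels overlapped, with 73.57 to 126.51 TPM in cKO libraries, against 52.64 to 87.35 TPM in WT libraries. Tcf7 was lower under the cKO label at 24 h, with 35.7 to 38.3 TPM in cKO libraries, against 62.6 to 77.0 TPM in WT libraries. The labels do not name the floxed exons, and a count over the whole gene includes exons outside them. The CD8 T cell markers Cd3e, Cd3d, Cd8a and Cd8b1 were present in every library, and their summed level ran from 3783 to 4272 TPM at 0 h down to 662 to 801 TPM at 24 h. Among markers of other cell types, Cd4 reached 0.47 and Lyz2 0.70 TPM at most. The highest were Bst2 (100.2 to 329.5 TPM), Cd79b (0.77 to 52.4 TPM), Hba-a1 (at 0 in 18 of the 24 libraries and 21.4 TPM at most, in a cKO library at 4 h) and Cd68 (0.50 to 5.18 TPM), and the others stayed at or under 2.42 TPM. Their part in the results was not tested. On the first principal component of all genes, the 4 h library of cKO mouse 3 was displaced toward 0 h. The 8 h libraries of cKO mouse 2 and WT mouse 5 were displaced toward 24 h.

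The promoters of Cycs and Cox7a2l are shown because these genes moved in opposite directions in the time course described below. Cycs increased, though less than Ndufaf6 and Ndufaf2 under both labels and less than Ndufab1 in cKO. Cox7a2l had the largest decrease. Whether the motifs below go with the direction of change was not tested. Each is the 250 bases before the gene's start in RefSeq on build GRCm38.p6, read 5′ to 3′ on the gene's own strand, which is the minus strand for both. The windows are chr6:50566570-50566819 for Cycs and chr17:83514334-83514583 for Cox7a2l. In GENCODE, exons of an antisense gene cover up to 177 bases of the Cycs window, and no exon lies in that of Cox7a2l. Capitals mark a match to 1 of 4 motifs searched on both strands: GCATGCGC, bound by NRF1; TGACGTCA, the cyclic AMP response element (CRE); CCGGAAG, an ETS site; and CACGTG, an E-box.
Cycs: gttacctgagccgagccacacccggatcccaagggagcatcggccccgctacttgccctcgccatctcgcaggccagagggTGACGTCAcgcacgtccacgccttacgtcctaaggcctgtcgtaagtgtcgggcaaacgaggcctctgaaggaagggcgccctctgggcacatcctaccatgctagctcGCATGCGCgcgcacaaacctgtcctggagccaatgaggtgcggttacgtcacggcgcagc
Cox7a2l: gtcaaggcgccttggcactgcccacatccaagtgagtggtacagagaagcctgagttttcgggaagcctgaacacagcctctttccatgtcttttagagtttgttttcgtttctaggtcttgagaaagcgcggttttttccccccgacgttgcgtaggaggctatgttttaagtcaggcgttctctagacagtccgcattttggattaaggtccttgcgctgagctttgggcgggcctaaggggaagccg

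In Cycs the CRE began 169 bases before the gene's start and the NRF1 motif 60 bases before it. A stretch of bases just past this RefSeq start was found in 0 GENCODE transcripts of Cycs, against 2 for Cox7a2l. The distances therefore hold for the RefSeq start, which may differ from that in GENCODE. In Cox7a2l none of the 4 motifs was found in this window. Over the 83 windows of the 77 members with an entry in the promoter table, the NRF1 motif was found in 12.0%, against 2.26% of all 32851 windows of the same length. The 10 genes with that motif were Cycs, Sdhb, Cox6a1, Ndufa6, Ndufa8, Ndufa11, Ndufaf4, Atp5g2, Atp5k and Atp5l. The CRE was found in 6.02% of the members' windows, against 1.55% of all windows. The ETS motif was found in 15.7%, against 6.91%, and the E-box in 10.8%, against 6.02%. All 4 motifs were thus more frequent in the members' windows. The windows of all genes were not matched to these by expression or base content. Where a gene has several starts, some windows may reach into its longer transcripts. These are matches of letters and carry no measurement of binding.

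The members made up a growing share of the RNA after a dip. Their summed level was 24275 ± 964 TPM in cKO and 23988 ± 149 TPM in WT at 0 h (SD, n = 3 here and below). At 4 h it was 21377 ± 391 TPM in cKO and 21522 ± 681 TPM in WT, and at 8 h 26734 ± 782 TPM in cKO and 27515 ± 573 TPM in WT. At 24 h it reached 36670 ± 301 TPM in cKO and 37048 ± 188 TPM in WT. Taken mouse by mouse, the level at 24 h was 1.51 ± 0.07 times that at 0 h in cKO and 1.54 ± 0.01 times in WT. Every mouse was lowest at 4 h and highest at 24 h.

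The complexes did not move in step. Complex III had no dip: at 4 h its summed level was 1.10 ± 0.04 times that at 0 h in cKO mice and 1.11 ± 0.01 times in WT mice. Complex I dipped most, to 0.80 ± 0.02 times the level at 0 h in cKO and 0.81 ± 0.03 times in WT. Complex IV stood at 0.88 ± 0.02 times in cKO and 0.89 ± 0.02 times in WT, and the ATP synthase at 0.88 ± 0.02 times in cKO and 0.91 ± 0.03 times in WT. Complex II, whose 4 subunits also work in the citric acid cycle, stood at 0.92 ± 0.04 times in cKO and 0.94 ± 0.06 times in WT. By 24 h it had increased to 1.61 ± 0.11 times its 8 h level in cKO and 1.55 ± 0.003 times in WT. From 0 to 24 h the summed level of complex III increased most, 1.77 ± 0.09 times in cKO and 1.76 ± 0.04 times in WT. That of complex IV increased least, 1.33 ± 0.06 times in cKO and 1.36 ± 0.01 times in WT. The complex IV sum includes Cox7a2l, which fell over this time, and leaves out Ndufa4, counted here with complex I. In WT the median fitted log2 fold change of the tested members was 0.67 for complex IV and 0.65 for complex I. By this median complex IV was not the lowest in WT, where the 2 values lay close. The medians by complex in cKO are not given here.

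**Figure D1:**
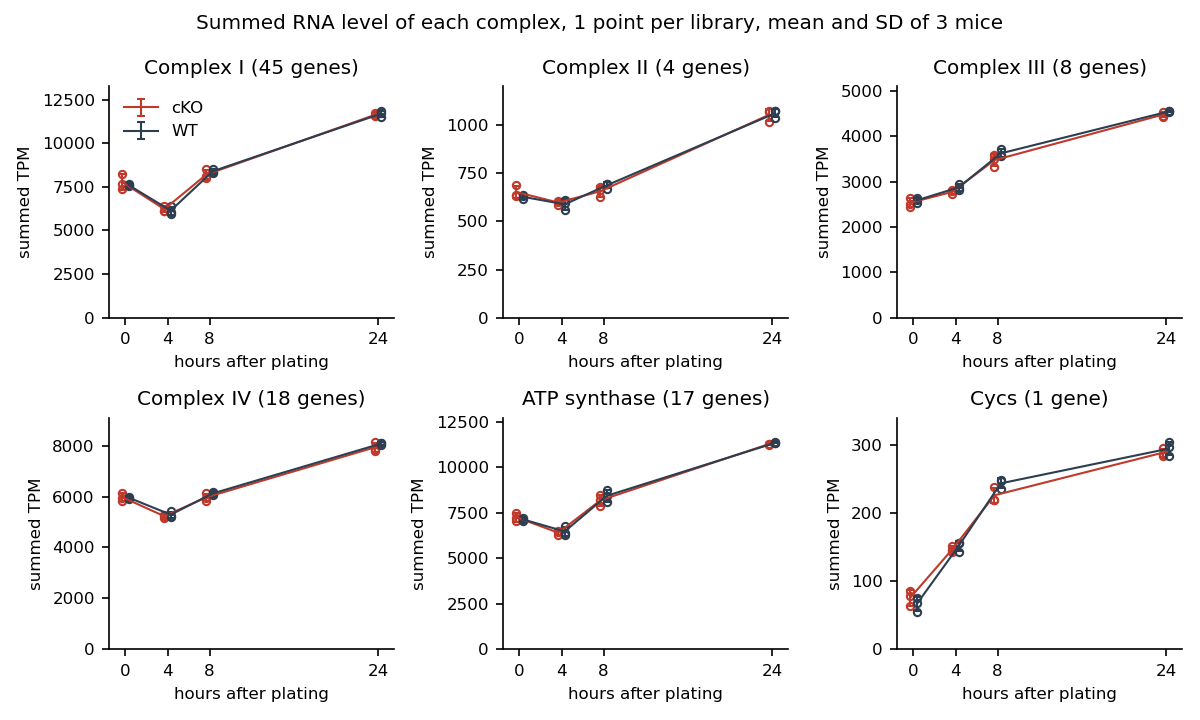
Summed TPM of the members of each complex (vertical axes, from 0) against hours after plating. Each open point is 1 library, lines join the means of 3 mice with SD bars, cKO is red and left of WT, which is dark. Complex III and Cycs increase from the first interval on, and the other complexes are lowest at 4 h.

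Tests were made for the 85 members that passed the filter on low counts. The other 8 were at or under 3.43 TPM in every library: Ndufa4l2 and the complex IV isoforms Cox4i2, Cox6a2, Cox6b2, Cox7a1, Cox7b2, Cox8b and Cox8c. These isoforms are known from heart, skeletal muscle, lung or testis. Cox8b had no count in any library. A gene was called at a Benjamini-Hochberg adjusted p under 0.05 by edgeR's quasi-likelihood test over 11470 genes.

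From 0 to 24 h, 71 of the 85 members were called higher and 9 lower in cKO, where 37.3% of all genes tested were called higher and 39.0% lower. In WT, 67 were called higher and 8 lower, against 36.9% higher and 40.1% lower of all genes. The median fitted log2 fold change of the members was 0.70 in cKO and 0.78 in WT, and that of all genes was -0.07 in cKO and -0.08 in WT. All 67 genes called higher in WT were among the 71 of cKO, and all 8 called lower in WT were among the 9 of cKO. By complex in WT, 32 of 44 complex I genes, 4 of 4 complex II genes, 7 of 8 complex III genes, 10 of 11 complex IV genes and 13 of 17 complex V genes were called higher. The 17 include Atp5s and Atp5sl, of which 0 were called higher. Of the other complex V genes, 4 of 5 in the F1 head and 9 of 10 in the stalk and membrane were called higher. The share of counts held by the ribosomal RNA gene Rn45s was 7.39 to 9.54% at 24 h and 16.3 to 18.9% at 0 h. With Rn45s removed from the library sizes the members' median was 0.70 in cKO and 0.80 in WT.

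The first interval divided the members. At 4 h against 0 h, 13 were called higher and 37 lower in cKO, where 29.6% of all genes were called higher and 27.6% lower. In WT, 18 were called higher and 33 lower, against 30.0% and 29.1% of all genes. Of these, 12 genes were called higher under both labels and 30 lower under both. From 4 to 8 h nearly all movement was upward: 61 members were called higher and 3 lower in cKO, against 20.8% and 19.6% of all genes, and 69 higher and 3 lower in WT, against 21.9% and 19.7%. Without WT mouse 5, 40 members were called higher in that WT interval. From 8 to 24 h, 68 members were called higher and 3 lower in cKO, against 25.2% and 32.1% of all genes, and 62 higher and 4 lower in WT, against 24.7% and 34.1%.

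Each gene's time of lowest and highest mean TPM was also read. The lowest of the 4 group means was the one at 4 h for 54 of 85 members in cKO (63.5%) and for 50 in WT (58.8%). Over the 8949 genes with a mean of at least 2.80 TPM, the level of the lowest tested member, the share was 18.8% in cKO and 17.8% in WT. The highest mean was the one at 24 h for 72 of 85 members (84.7%) under each label, and for 33.0% of those genes in cKO and 33.2% in WT.

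Cytochrome c, the soluble carrier between complexes III and IV, climbed in both of the first intervals. Cycs had 78.1, 85.6 and 62.5 TPM in cKO mice and 54.9, 67.0 and 75.7 TPM in WT mice at 0 h. By 4 h the values were 145, 152 and 143 TPM for cKO and 156, 156 and 142 TPM for WT. By 8 h they were 219, 238 and 219 TPM for cKO and 247, 248 and 235 TPM for WT, which put all of them above 4 h. By 24 h they were 283, 295 and 287 TPM for cKO and 296, 283 and 303 TPM for WT. Under each label the libraries of the 4 times did not overlap, and every mouse increased at every step, although the fitted change between 8 and 24 h was called in cKO alone (its difference from WT was not called). The fitted log2 fold change at 24 h against 0 h was 2.01 ± 0.11 (SE) in cKO and 2.21 ± 0.11 in WT, with adjusted p of 4.24e-18 in cKO and 4.33e-19 in WT by edgeR's quasi-likelihood test. At 4 h it was already 1.04 ± 0.11 in cKO and 1.30 ± 0.11 in WT, both called.

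Complex I couples NADH oxidation to proton pumping. Its nuclear subunits are 7 core ones, among them those that hold the flavin and the iron-sulfur clusters, and a shell of accessory subunits. These core subunits, among them Ndufs8, Ndufv1 and Ndufv2, moved together. All 7 had negative fitted changes at 4 h. Of them, 6 were called lower in cKO and 4 in WT, against 27.6% of all genes in cKO and 29.1% in WT. All 7 were called higher at 24 h against 0 h under both labels, against 37.3% of all genes in cKO and 36.9% in WT. Ndufs8, which binds iron-sulfur clusters, changed by 0.88 ± 0.11 in cKO and 1.05 ± 0.11 in WT on the log2 scale, the largest of them in WT.

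The 29 accessory subunits of complex I were more divided. At 24 h against 0 h, 22 were called higher and 5 lower in cKO, against 37.3% and 39.0% of all genes. In WT, 18 were called higher and 4 lower, against 36.9% and 40.1% of all genes. Ndufab1, the mitochondrial acyl carrier protein, which also serves fatty acid synthesis, rose most. It had 370, 365 and 373 TPM in cKO mice and 378, 391 and 396 TPM in WT mice at 24 h, against 92.0, 88.7 and 87.9 TPM in cKO mice and 89.2, 87.2 and 98.8 TPM in WT mice at 0 h. The 24 h libraries lay far above the 0 h libraries without overlap, and the log2 fold change of Ndufab1 was 2.12 ± 0.11 in cKO and 2.11 ± 0.11 in WT. Ndufb6, a subunit of the membrane arm, changed by 1.76 ± 0.11 in cKO and 1.94 ± 0.11 in WT. Its exons overlap those of Smim27 on the opposite strand, and the libraries do not keep strand.

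Other accessory subunits fell in the first 4 h. Ndufv3, a small subunit of the NADH-oxidising module, had 97.4, 70.4 and 66.8 TPM in cKO mice and 81.4, 74.5 and 77.5 TPM in WT mice at 4 h, against 211, 200 and 230 TPM in cKO mice and 217, 248 and 236 TPM in WT mice at 0 h. Every library at 4 h lay below every library at 0 h, and the log2 fold change was -1.32 ± 0.13 in cKO and -1.35 ± 0.13 in WT. By 24 h it had regained part of this, with 153, 137 and 134 TPM in cKO mice and 150, 143 and 129 TPM in WT mice, and was still called lower than at 0 h (-0.67 in cKO and -0.83 in WT). Ndufa13, also known as GRIM-19, and Ndufb3 fell at 4 h by 1.01 and 1.02 on the log2 scale in cKO and by 1.02 and 0.95 in WT. Ndufb3 returned to 218, 225 and 228 TPM in cKO mice and 206, 210 and 220 TPM in WT mice at 24 h, against 185 to 220 TPM in cKO and 182 to 195 TPM in WT at 0 h, and was called higher in cKO (adjusted p = 0.0461 by edgeR's quasi-likelihood test) and not in WT (0.128). Ndufb10 likewise fell at 4 h, by 0.95 in cKO and 0.81 in WT, and gained 0.89 in cKO and 0.96 in WT between 8 and 24 h. Ndufc2 had the largest increase of any member between 4 and 8 h in WT, 1.10 ± 0.13, and changed by 1.01 ± 0.13 in cKO.

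The 7 assembly factors, which help to build complex I, were low in abundance and wide in range. Ndufaf2 had 94.7, 97.1 and 97.5 TPM in cKO mice and 104, 97.2 and 115 TPM in WT mice at 24 h, against 23.1, 16.0 and 12.9 TPM in cKO mice and 12.2, 20.2 and 21.9 TPM in WT mice at 0 h. Its log2 fold change was 2.52 ± 0.19 in cKO and 2.55 ± 0.20 in WT. Ndufaf6 had the largest of all members, 3.24 ± 0.28 in cKO and 3.12 ± 0.28 in WT, on levels of 3.57 to 11.2 TPM in cKO and 6.38 to 8.42 TPM in WT at 0 h. Ndufaf4 peaked at 8 h. It had 15.8 to 21.5 TPM in cKO and 15.9 to 17.2 TPM in WT at 0 h, 39.3 to 49.0 TPM in cKO and 40.8 to 56.4 TPM in WT at 4 h, 61.3 to 67.5 TPM in cKO and 66.2 to 70.8 TPM in WT at 8 h, and 42.2 to 47.3 TPM in cKO and 41.1 to 46.1 TPM in WT at 24 h. It was the member with the largest increase at 4 h, by 1.37 in cKO and 1.62 in WT, and with the largest decrease between 8 and 24 h in WT, by 0.75. Ndufaf3, which is known to act with Ndufaf4 during assembly, went the other way and was called lower at 24 h against 0 h, by -0.99 ± 0.23 in cKO and -1.10 ± 0.23 in WT.

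**Figure D2:**
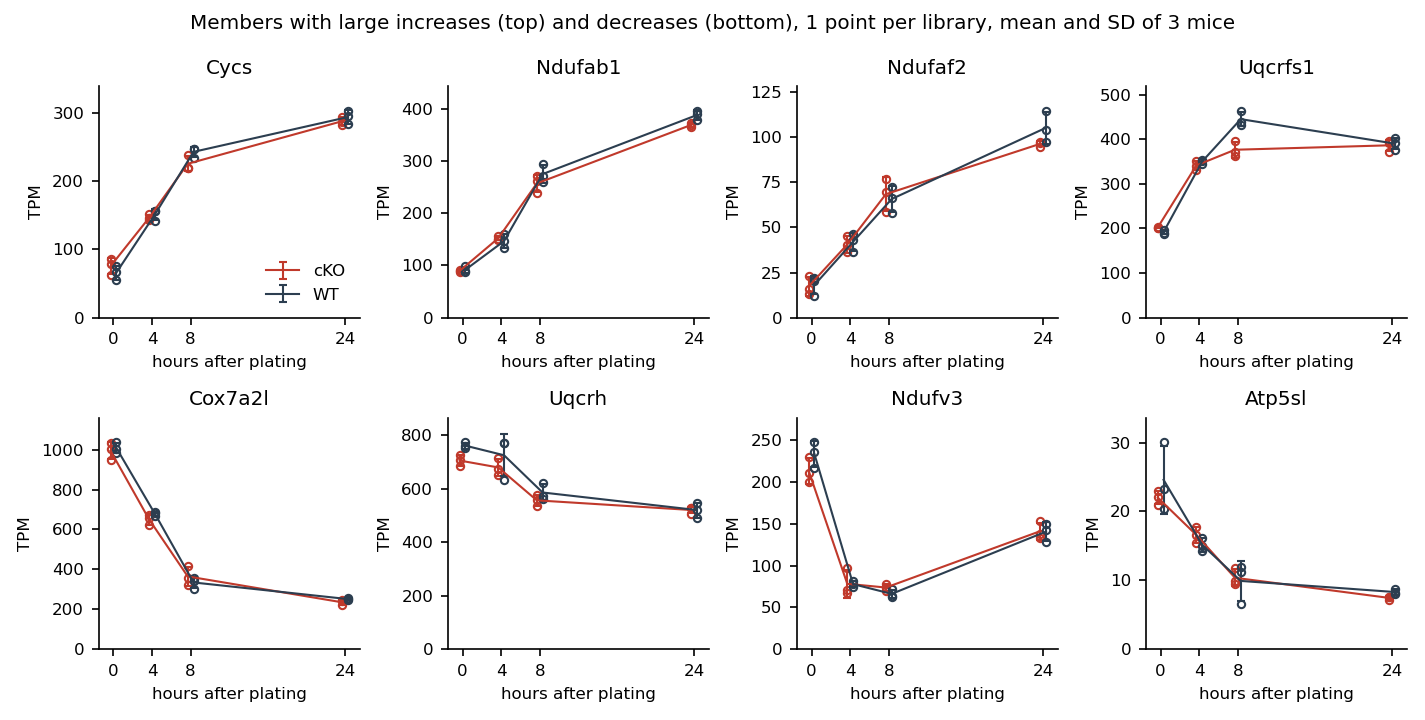
TPM of 8 members (vertical axes, from 0) against hours after plating, with 1 open point per library, lines joining the means of 3 mice and SD bars, cKO in red and left of WT. The upper row holds Cycs, Ndufab1, Ndufaf2 and Uqcrfs1, which increased, and the lower row Cox7a2l, Uqcrh, Ndufv3 and Atp5sl, which were lower at 24 h than at 0 h.

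All 4 complex II genes were called higher at 24 h against 0 h, against 37.3% of all genes in cKO and 36.9% in WT. Sdhb, the iron-sulfur subunit, had 501, 497 and 477 TPM in cKO mice and 497, 502 and 485 TPM in WT mice at 24 h, against 282, 228 and 229 TPM in cKO mice and 248, 244 and 250 TPM in WT mice at 0 h. These times did not overlap, and the log2 fold change was 1.07 ± 0.10 in cKO and 1.04 ± 0.10 in WT. Sdhd, a membrane anchor, increased by 0.99 ± 0.11 in cKO and 1.25 ± 0.11 in WT, most of it between 8 and 24 h (0.97 in cKO and 0.86 in WT). The other anchor, Sdhc, increased by 0.67 ± 0.12 in cKO and 0.55 ± 0.12 in WT. The flavoprotein Sdha, at 234 to 245 TPM in cKO and 214 to 240 TPM in WT at 0 h, increased least, by 0.24 ± 0.07 in cKO and 0.26 ± 0.07 in WT.

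In complex III, Uqcrfs1, the Rieske iron-sulfur protein, was called higher in the first interval. It had 332, 352 and 340 TPM in cKO mice and 354, 351 and 345 TPM in WT mice at 4 h, against 201, 202 and 204 TPM in cKO mice and 197, 190 and 188 TPM in WT mice at 0 h. These times did not overlap, and the log2 fold change was 0.83 ± 0.08 in cKO and 0.95 ± 0.08 in WT; at 24 h against 0 h it was 1.01 in cKO and 1.06 in WT. At 8 h its mean was 376 ± 18 TPM in cKO and 445 ± 16 TPM in WT. In WT it was called higher at 8 h than at 4 h (0.41 ± 0.08) and lower at 24 h than at 8 h (-0.30 ± 0.08), and neither change was called in cKO (0.18 and -0.00171). The decrease in WT was not called without WT mouse 5 (-0.17, adjusted p = 0.151 by edgeR's quasi-likelihood test), and its interaction with the label was not called. Uqcrq and Uqcrb, small subunits of the ubiquinone-binding side, also increased. Uqcrq, called higher in each interval under both labels, had 901, 892 and 1010 TPM in cKO mice and 937, 955 and 977 TPM in WT mice at 24 h, against 283, 265 and 267 TPM in cKO mice and 330, 288 and 323 TPM in WT mice at 0 h. Its log2 fold change was 1.85 ± 0.11 in cKO and 1.62 ± 0.11 in WT, and that of Uqcrb was 1.26 ± 0.10 in cKO and 1.33 ± 0.10 in WT. Uqcr11 first fell by 0.27 in cKO and 0.26 in WT at 4 h, and stood 1.13 ± 0.10 higher in cKO and 1.19 ± 0.10 higher in WT at 24 h.

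Uqcrh, the hinge protein that sits beside cytochrome c1, was the complex III member called lower. It had 527, 529 and 506 TPM in cKO mice and 491, 548 and 522 TPM in WT mice at 24 h, against 725, 707 and 685 TPM in cKO mice and 774, 759 and 751 TPM in WT mice at 0 h. It had been the most abundant complex III member at 0 h, and by 24 h Uqcrq was above it. The log2 fold change was -0.37 ± 0.09 in cKO and -0.53 ± 0.09 in WT. Between 4 and 8 h in WT its change of -0.26 (adjusted p = 0.0187 by edgeR's quasi-likelihood test) was not called without WT mouse 4 (-0.15, adjusted p = 0.283) or WT mouse 6 (-0.19, adjusted p = 0.244).

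Complex IV held the member with the largest decrease of all. Cox7a2l, also called SCAFI, is related in sequence to the Cox7a subunits and is known to join complexes III and IV into supercomplexes. It had 1031, 948 and 1005 TPM in cKO mice and 1005, 1037 and 985 TPM in WT mice at 0 h. By 4 h this was 672, 620 and 658 TPM for cKO and 667, 686 and 681 TPM for WT, and by 8 h 415, 322 and 356 TPM for cKO and 356, 303 and 343 TPM for WT. By 24 h it was 244, 240 and 220 TPM for cKO and 251, 254 and 246 TPM for WT. It fell at every step in every mouse, and no library of one time overlapped the next. The log2 fold change at 24 h against 0 h was -2.01 ± 0.08 in cKO and -1.97 ± 0.08 in WT, with adjusted p of 2.04e-22 in cKO and 3.06e-22 in WT by edgeR's quasi-likelihood test.

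Cox7a2, the Cox7a subunit of non-muscle tissues, moved the other way, by 1.19 ± 0.09 in cKO and 1.14 ± 0.10 in WT. Of the summed TPM of Cox7a1, Cox7a2 and Cox7a2l, Cox7a2 held 71.5 ± 1.8% in cKO and 70.8 ± 0.4% in WT at 24 h, against 21.4 ± 0.8% in cKO and 21.8 ± 0.8% in WT at 0 h. Cox7a2 and Cox7a2l were near equal at 8 h, where Cox7a2 held 50.3 ± 4.1% in cKO and 54.4 ± 2.3% in WT. The 10 tested complex IV members other than Cox7a2l were all called higher at 24 h under both labels. Of all genes, 37.3% were called higher in cKO and 36.9% in WT. Cox7c changed by 1.41 ± 0.11 in cKO and 1.40 ± 0.11 in WT and Cox5a by 1.03 ± 0.10 in cKO and 1.13 ± 0.10 in WT. The abundant Cox4i1, at 951 to 1011 TPM in cKO and 1020 to 1064 TPM in WT at 0 h, changed by 0.42 ± 0.08 in cKO and 0.33 ± 0.08 in WT. Its exons overlap those of Emc8. Ndufa4, which the rule places with complex I by name, is now assigned to complex IV in mammals. It had 1406, 1372 and 1430 TPM in cKO mice and 1346, 1291 and 1416 TPM in WT mice at 24 h, against 881, 813 and 750 TPM in cKO mice and 709, 789 and 798 TPM in WT mice at 0 h.

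In the ATP synthase, Atp5b, the catalytic beta subunit of the F1 head, had the highest mean level of all members over the 24 libraries. It had 1943, 2001 and 1902 TPM in cKO mice and 1995, 1941 and 1972 TPM in WT mice at 24 h, against 946, 924 and 873 TPM in cKO mice and 858, 861 and 866 TPM in WT mice at 0 h. It was higher at 4 h than at 0 h in all 6 mice, and the log2 fold change at 24 h was 1.17 ± 0.08 in cKO and 1.24 ± 0.08 in WT. The alpha subunit Atp5a1, which pairs with it in the head, was not called at 4 h (-0.13 in cKO and -0.02 in WT) and increased by 0.80 ± 0.08 in cKO and 0.83 ± 0.08 in WT at 24 h. Atp5f1, of the peripheral stalk, increased by 0.91 ± 0.09 in cKO and 1.06 ± 0.09 in WT. RSEM gave non-whole counts to Atp5a1, Atp5b, Ndufs5 and Ndufaf7 in every library, so some of their reads were shared with other genes.

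The c subunit of the membrane ring is made from 3 genes that encode the same mature protein behind different import sequences, and their proportions shifted. Atp5g1 had 764, 759 and 774 TPM in cKO mice and 773, 780 and 778 TPM in WT mice at 24 h, against 283, 267 and 263 TPM in cKO mice and 280, 274 and 286 TPM in WT mice at 0 h. Its share of the summed Atp5g level was 34.6 ± 0.6% in cKO and 34.3 ± 0.3% in WT at 24 h, against 21.3 ± 0.2% in cKO and 21.6 ± 0.8% in WT at 0 h. Atp5g2 held 36.3 ± 0.4% in cKO and 37.0 ± 0.7% in WT at 24 h, against 46.0 ± 0.6% in cKO and 47.8 ± 1.7% in WT at 0 h. Atp5g2 fell at 4 h by 0.37 in cKO and 0.57 in WT on the log2 scale. It then held 36.8 ± 0.4% in cKO and 33.4 ± 1.5% in WT, beside 34.7 ± 0.7% in cKO and 37.2 ± 1.4% in WT for Atp5g3. At 24 h against 0 h the log2 fold change of Atp5g1 was 1.58 ± 0.09 in cKO and 1.51 ± 0.09 in WT. That of Atp5g2 was 0.52 ± 0.09 in cKO and 0.46 ± 0.09 in WT, and that of Atp5g3 0.70 ± 0.10 in cKO and 0.74 ± 0.10 in WT.

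**Figure D3:**
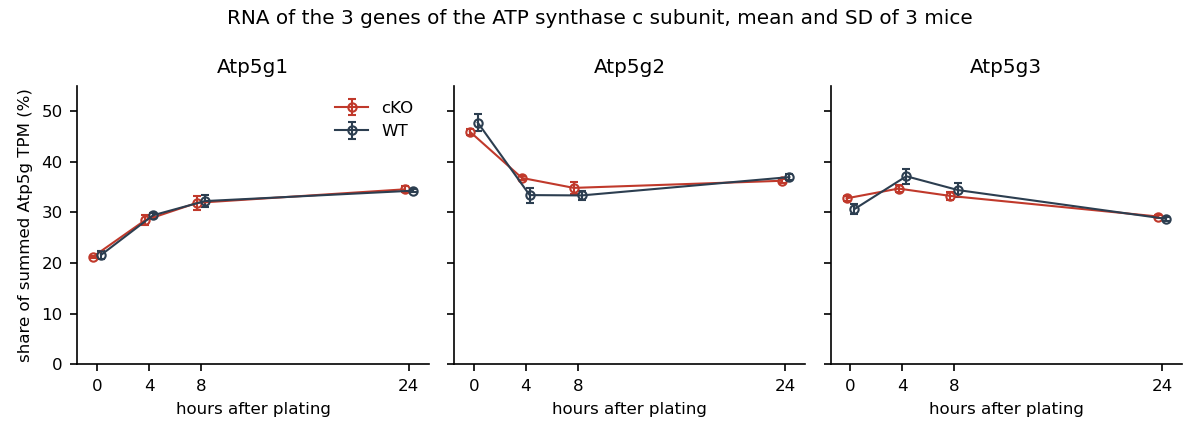
Share of the summed Atp5g TPM held by Atp5g1, Atp5g2 and Atp5g3 (vertical axis, percent, from 0) against hours after plating. Points are means of 3 mice with SD bars, cKO in red and left of WT. The share of Atp5g1 increases and that of Atp5g2 decreases between 0 and 4 h under both labels.

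Atp5sl was the member of the Atp5 group called lower. It had 7.53, 7.58 and 7.19 TPM in cKO mice and 7.97, 8.18 and 8.72 TPM in WT mice at 24 h, against 22.2, 21.0 and 22.9 TPM in cKO mice and 30.1, 23.3 and 20.4 TPM in WT mice at 0 h. These times did not overlap, and the log2 fold change was -1.48 ± 0.16 in cKO and -1.52 ± 0.16 in WT. RefSeq now names this gene Dmac2, and its human counterpart is known as a factor in the assembly of the distal membrane arm of complex I. Besides Cox7a2l, Uqcrh, Ndufv3, Ndufaf3 and Atp5sl, the members called lower at 24 h under both labels were Ndufa3, Ndufa6 and Ndufb11.

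The design also asks whether the cells labelled cKO differed from those labelled WT in these genes. None of the 85 members was called at any time by edgeR's quasi-likelihood test, where 0.445% of all genes were called at 0 h, 0.820% at 4 h, 0.183% at 8 h and 0.105% at 24 h. At an unadjusted p under 0.05 there were 1, 2, 2 and 0 members at those times. With 1 mouse left out, the highest count was 5 at 0 h (without cKO mouse 3), 4 at 4 h (without cKO mouse 2) and 27 at 8 h (without WT mouse 4), while the lowest was 0, 1 and 1. It stayed at 0 for 24 h. These counts are given without the share of all genes at that cutoff, so they cannot be read as particular to the members. The interval of the difference lay within 1.5-fold in either direction for 82 members at 0 h, 81 at 4 h, 81 at 8 h and 83 at 24 h. The wider ones belonged to the low or variable Atp5s, Ndufs5, Ndufaf3 and Ndufaf6. Libraries of the labels did not overlap for 8, 7, 3 and 7 members at the 4 times, and for 13.5%, 16.0%, 10.5% and 13.5% of all genes. The summed level of each complex overlapped between the labels at every time, except that of the ATP synthase at 24 h, where cKO held 0.994 times the WT level.

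At 8 h, 76 of the 85 members had a lower fitted mean under the cKO label, as had 6284 of all 11470 genes, with a median log2 difference of -0.10 against -0.03 over all genes. On TPM the median was -0.04 for the members and 0.02 for all genes. The smallest p was that of Uqcrfs1, at 362, 371 and 396 TPM in mice labelled cKO, against 438, 463 and 433 TPM in mice labelled WT. These libraries did not overlap, and the log2 fold change was -0.31 ± 0.08 with an adjusted p of 0.117 by edgeR's quasi-likelihood test. Uqcrfs1 was called by DESeq2 (adjusted p = 0.0224), by limma on TPM (adjusted p = 0.0195) and by edgeR without WT mouse 4 (adjusted p = 0.0295). At 24 h it had 395, 372 and 391 TPM in mice labelled cKO, against 391, 376 and 402 TPM in mice labelled WT, which overlap.

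At 4 h the smallest p was that of the assembly factor Ndufaf6, at 10.5, 8.71 and 4.88 TPM in mice labelled cKO, against 12.1, 14.1 and 16.1 TPM in mice labelled WT. The log2 fold change was -0.82 ± 0.32 with an adjusted p of 0.282 by edgeR's quasi-likelihood test, and 0.0327 with no filter on low counts. At 0 h the smallest p was that of Uqcrq (-0.25 ± 0.11) and at 24 h that of Cox7a2l (-0.10 ± 0.08), neither called. No member was called in the interaction of label and time, for 24 h against 0 h (0.0174% of all genes called) or 24 h against 8 h (0.00872%). At an unadjusted p under 0.05 there were 0 and 1 members, again without the share of all genes at that cutoff. The 1 was Uqcrfs1.

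**Figure D4:**
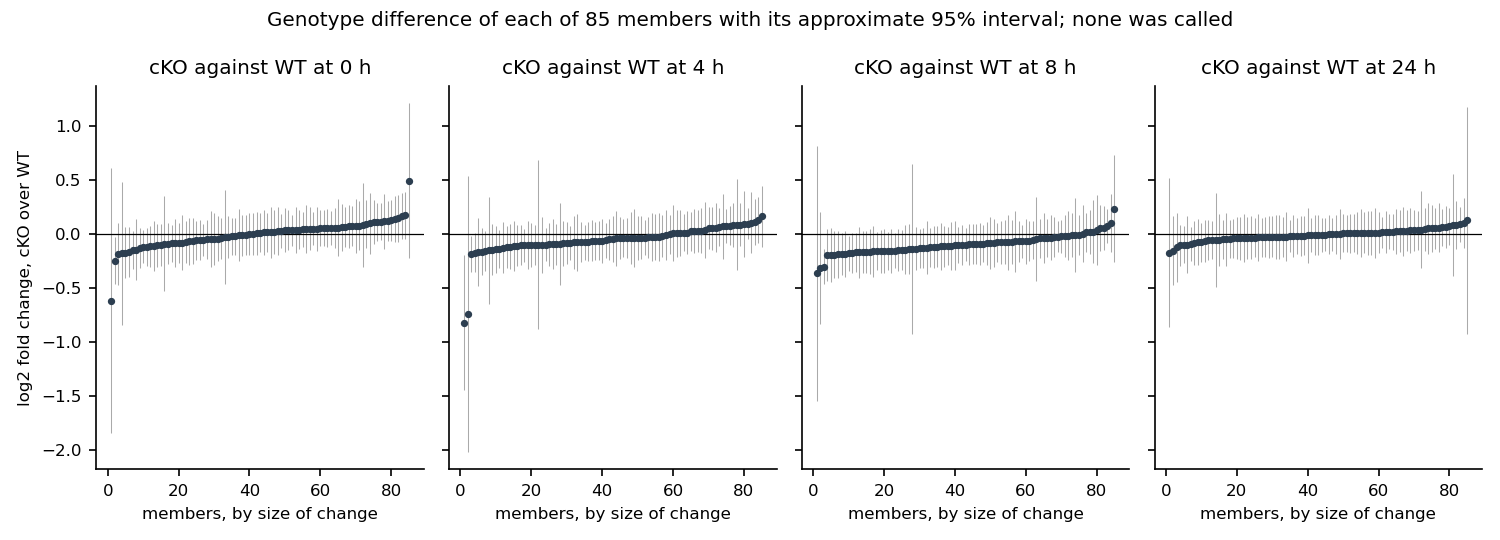
Fitted log2 fold change of cKO over WT (vertical axis) for each of the 85 tested members at 0, 4, 8 and 24 h, ordered by size, with approximate 95% intervals. Most points lie within 0.2 of 0, and the wide intervals belong to low or variable members such as Ndufs5 and Ndufaf6.

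The members varied little between mice. The median coefficient of variation over 3 mice was 3.25 to 6.62% across the 8 groups, against 7.03 to 12.9% for the 8949 genes with at least the mean level of the lowest tested member. Those genes were not matched to the members by level, and most members lay far above that lowest level. Whether the smaller spread goes with their high level was not tested. Ndufs5 had the widest spread of all members in every cKO group and in WT at 4 h. It had 9.16, 26.7 and 73.4 TPM in cKO mice at 4 h and 35.3, 96.6 and 42.0 TPM in WT mice, and its values are uncertain. Some of its reads were shared with other genes in every library, as were those of Atp5a1 and Atp5b, which varied little. Whether this sharing widened the spread of Ndufs5 was not tested.

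Genes of the same pathways that the symbol rule leaves out were examined from fixed lists. In this comparison, 24 h against 0 h, 37.3% of all genes were called higher and 39.0% lower in cKO, and 36.9% higher and 40.1% lower in WT. A list of 15 genes outside the rule covered electron transport, ubiquinone synthesis and the ATP synthase (Atpif1 and Usmg5). Of these, 13 were called higher and 0 lower at 24 h against 0 h under each label. Cyc1, the cytochrome c1 of complex III, had 640 ± 20 TPM in cKO and 656 ± 5 TPM in WT at 24 h, against 227 ± 13 TPM in cKO and 216 ± 6 TPM in WT at 0 h, and Coq7, an enzyme of ubiquinone synthesis, changed by 2.58 ± 0.16 in cKO and 2.44 ± 0.16 in WT on the log2 scale. Of 26 tested assembly factors outside the rule, 14 were called higher and 3 lower in cKO and 15 higher and 4 lower in WT, among them the copper chaperone Cox17 (1.33 ± 0.10 higher in cKO and 1.39 ± 0.11 in WT) and Tmem70 of ATP synthase assembly (1.86 ± 0.11 in cKO and 1.91 ± 0.11 in WT). All 6 carriers and pores were called higher under each label, led by the ADP/ATP carrier Slc25a5 at 1.71 ± 0.09 in cKO and 1.78 ± 0.09 in WT. Of 16 regulators of mitochondrial biogenesis, 10 were called higher and 2 lower under each label; Tfam, which packages mitochondrial DNA, increased by 0.57 ± 0.10 in cKO and 0.56 ± 0.10 in WT, and Nrf1 was not called, at 0.02 ± 0.10 in cKO and 0.12 ± 0.10 in WT. Of 15 glycolysis genes, 14 were called higher and 1 lower in cKO, and 13 higher and 1 lower in WT, with Ldha at 2.14 ± 0.09 in cKO and 2.26 ± 0.10 in WT.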

How the data were processed

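The libraries were made with Smart-seq2, which reads whole transcripts and adds no molecular identifiers, from CD8+ T cells of 6 mice (24 libraries). The submitters' processing notes name STAR, RSEM, DESeq2 and the mouse build mm10, without versions. Per the file headers, the deposited tables give an expected count (RSEM's estimate of reads per gene) and a TPM for each of 23420 genes, and FPKM, which was not used. Groups and mouse numbers come from the labels, and replicates are separate animals.

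Rounded expected counts were fitted with edgeR 4.0.16 (R 4.3.3): genes kept by its filter on low counts over the 8 groups (11470), TMM scaling, and 1 robust quasi-likelihood model with 8 group means over all 24 libraries. Tests are two-sided, and each comparison had its own Benjamini-Hochberg adjustment. The SE was obtained from the fold change and its F statistic, as |log2 fold change| over the root of F. Alternatives were DESeq2 1.42.0, limma 3.58.1 on log2(TPM + 1), other scalings and filters, a mouse block, and leaving out each mouse. Since the same mice were sampled at every time, mouse numbers pair libraries across times by design; the correlation of their deviations had a median of 0.02 (range -0.09 to 0.16 over 36 pairs). Totals per library limit the precision, and counting intervals would cover counting error only.

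Of the 93 members, 24 overlap exons of another GENCODE gene and 84 had a non-whole count in some library, and Smart-seq2 keeps no strand. Promoters were read from RefSeq tables on GRCm38.p6. The genes named in the text were, in each complex, the most abundant members and those with the largest changes at 24 h in WT, those with the largest changes in each interval, those with the smallest p between the labels, and isoform groups; Ndufb10, Ndufs5 and the core subunits with values beyond these were described for their class. The members, gene lists and rule were chosen with earlier results of these data known.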

Additional observations from a re-analysis of the deposited data

Results flagged for a closer look

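Atp5g3, a gene of the ATP synthase c subunit, moved in opposite directions on the TPM scale under the 2 labels in the first 4 h. Its level at 4 h minus that at 0 h was below 0 in all 3 cKO mice, with a mean of -6.65 TPM, and above 0 in all 3 WT mice, with a mean of 47.5 TPM. It had 421, 411 and 402 TPM in cKO mice and 472, 432 and 431 TPM in WT mice at 4 h, against 431, 416 and 407 TPM in cKO mice and 407, 383 and 403 TPM in WT mice at 0 h. On the fitted scale the changes were not opposite, at 0.04 ± 0.10 in cKO and 0.23 ± 0.10 in WT (log2). A test of the difference itself, added after these values were seen, gave an interaction of -0.19 ± 0.14 on the log2 scale with an adjusted p of 0.813 by edgeR's quasi-likelihood test, so the difference did not pass. Ndufb8, chosen after its values were seen, showed the same pattern on TPM, with mean changes of -7.35 TPM in cKO and 15.2 TPM in WT (interaction -0.19 ± 0.15, adjusted p = 0.862 by the same test).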

How the results depend on the processing

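Of 354 recomputed counts of called members, 347 stayed within 1.5 times the main count. Leaving out single mice, the WT count called higher at 8 h against 4 h ranged from 40 to 71 (main 69), and the count called lower in cKO against WT at 8 h from 0 to 1 (main 0). With only the groups compared, 2 members were called lower at 24 h against 8 h in WT (main 4). With limma on TPM, 5 were called lower at 8 h against 4 h in cKO (main 3). With no filter on low counts, 1 was called lower in cKO against WT at 4 h, and with DESeq2 and with limma 1 was at 8 h; the cause was not tested. Of 728 recomputed values of named genes, 714 kept direction and side of the threshold, 10 lost the call, 4 gained it and 0 reversed. The lost calls were those of Ndufaf6, Atp5sl and Uqcrh at 8 h against 4 h and Uqcrfs1 at 24 h against 8 h, all in WT. The replicate block, with each mouse as a block, moved none of 20 counts by over 1.5 times and changed none of 54 named calls; with it 71 members were called higher and 9 lower at 24 h against 0 h in cKO, and 67 higher and 8 lower in WT. Leaving out cKO mouse 3 at 4 h, or cKO mouse 2 and WT mouse 5 at 8 h, was added after seeing the data and left 49 and 45 members called higher at 8 h against 4 h in cKO (main 61). Between scalings the median of all genes at 24 h against 8 h in WT was -0.12 with TMM, -0.04 with RLE scaling and 0.01 on TPM, and that of the members 0.40, 0.49 and 0.49. Levels are shares of a library, so RNA per cell, protein and respiration were not measured, and the 8 low members cannot be compared at this depth.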
